A study of Mus musculus with 6 samples.

Results

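The mouse induced pluripotent stem (iPS) cell lines iPS4 and iPS5 were compared with each other on 4 of the 6 arrays of the series. Membership rested on the labels alone, which name 2 arrays iPS4 and 2 iPS5, and all 41174 gene probes were used, standing for 18295 genes. Both lines were expanded from picked GFP-positive colonies of OG2 mouse embryonic fibroblasts (MEFs), which carry a green fluorescent reporter driven by Oct4. The fibroblasts of both lines, and of the third line iPS1, had received the same mixture of pMX retroviruses. It encoded Oct4, Sox2, Klf4 and c-Myc together with TBP, TAF3, TAF4 and TAF4b, with TAF5 to TAF7, and with TAF9 to TAF13, subunits of the general transcription factor TFIID. On every array the second dye carried RNA from a pool of OG2 embryonic stem (ES) cells. Lines and ES cells grew with LIF on irradiated MEF feeder cells, and the labels give no further treatment. The iPS RNA was in Cy5 on 1 array of each line and in Cy3 on the other. Whether these arrays had separate RNA is not stated, so their spread may be technical, and the test compares 2 lines and not 2 conditions.

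Mouse ES and iPS cells move between related states. Naive cells resemble the early epiblast, primed cells express Fgf5 and Otx2, and Wnt signalling through beta-catenin and TCF/LEF factors turns on primitive streak genes such as T. Small fractions of a culture can also enter a primitive endoderm state marked by Gata6, or a short-lived state of the 2-cell embryo marked by Zscan4. TFIID, with TBP and its associated factors, binds core promoters and recruits RNA polymerase II.

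A value below is the log2 ratio of a line to the ES pool on 1 array, and a difference is iPS4 minus iPS5 on the same scale, as the mean over the pair of arrays with the iPS RNA in Cy5 and the pair with it in Cy3. Before the results, the arrays themselves differed. The 75th percentile of background-subtracted signal in the iPS channel was 315.9 and 241.1 on the iPS4 arrays against 65.3 and 64.6 on the iPS5 arrays. The ES pool, the same RNA on all arrays, was dimmer on the iPS5 arrays as well, at 39.2 and 106.2 against 230.8 and 509.9. Gene probes above background in the iPS channel made up 88.05% and 64.55% on the iPS4 arrays and 63.12% and 46.87% on the iPS5 arrays. A constant of 50 added to every signal before the ratio therefore weighed more on the iPS5 arrays. With this fixed offset the slope of iPS5 on iPS4 ratios across probes was 0.554. When each channel was first scaled to one brightness, the slope was 0.848 (matched offset, an alternative chosen after the data were seen). Both values are given below for the called genes that are named, and a gene is said to hold where it was called with the same sign under both. The correlation of the difference with the mean of both lines across probes, which are not independent, was 0.462 with the fixed offset and -0.124 with the matched offset.

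**Figure D1:**
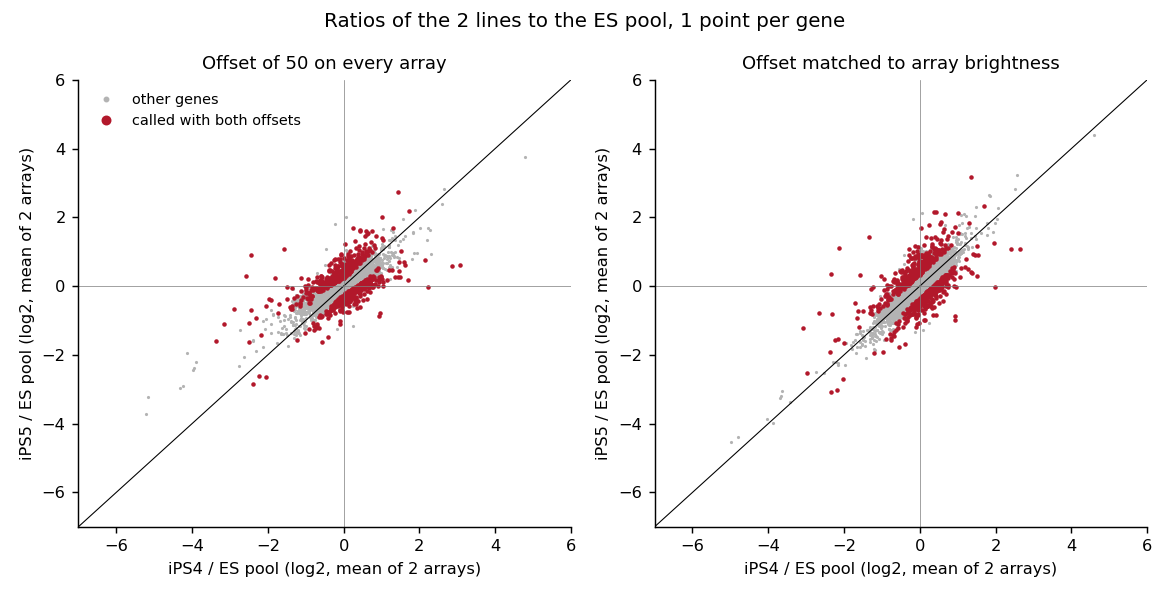
Log2 ratio of iPS5 (vertical axis) against iPS4 (horizontal axis) to the ES pool, 1 point per gene, mean of 2 arrays a line, with the fixed offset of 50 (left) and the matched offset (right); red points are the 689 genes called with both, and the black line marks equal ratios. With the fixed offset the grey points lie along a flatter slope (0.554 across probes) than with the matched offset (0.848).

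In the limma fit, 4436 probes were called at an adjusted p under 0.05, which is 10.8% of all gene probes, with 2211 higher and 2225 lower in iPS4. Differences larger than 2-fold, by limma's treat, were called for 22 probes (0.0534%). By gene, each represented by its brightest probe, 2440 were called (13.3%), of which 1086 were higher (5.94%) and 1354 lower (7.4%) in iPS4. With the matched offset 1270 probes were called, 10 of them beyond 2-fold. With no offset none was called after adjustment, against 7117 at an unadjusted p under 0.05, and leaving out 1 array at a time gave 617 to 6964. The genes that held numbered 689 (3.77%), with 324 higher (1.77%) and 365 lower (2%) in iPS4, and 654 of the 689 were above background on all 4 arrays. The third line lay nearer to iPS4 for 296 of the 324 higher genes and for 295 of the 365 lower genes, so for most genes that held it was iPS5 that stood apart. The iPS1 arrays were also brighter than the iPS5 arrays, with a 75th percentile of 411.2 and 211.4 in the iPS channel, and the part of brightness in this was not tested.

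T and Sp5, genes of the primitive streak, had the largest positive differences of all genes with the fixed offset, and both held. With the matched offset they stood below Slc39a8, Dppa3 and Plac8. T, the T-box factor Brachyury that defines nascent mesoderm, had log2 ratios of 2.87 and 3.27 on the iPS4 arrays and of 0.37 and 0.88 on the iPS5 arrays. Its difference was 2.44 ± 0.09 (SE), or 5.44-fold higher in iPS4 (adjusted p = 8.69e-05), and 1.56 with the matched offset (adjusted p = 0.00791). Sp5, a zinc finger factor induced by Wnt signalling, stood at 2.64 and 3.06 in iPS4 and at 0.46 and 0.68 in iPS5. The Sp5 difference was 2.28 ± 0.10 (SE, adjusted p = 0.000172), and 1.31 with the matched offset (adjusted p = 0.00371). For both genes all iPS4 arrays lay above all iPS5 arrays, and all 4 lay above the ES pool. In iPS1 the T ratios were higher still, at 3.65 and 3.77. In bulk RNA, fewer cells that express a gene and less RNA per cell cannot be told apart.

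The promoters of T and Sp5 are shown because these genes had the largest positive differences with the fixed offset and both are known targets of beta-catenin. The letters searched were CTTTGA, the core recognised by TCF/LEF factors, on both strands, in the 250 bases before and 50 bases after each start in RefSeq (GRCm38.p6). Matches are in capitals. The T promoter, chr17:8434173-8434472 on the plus strand, has 1 match, read from the other strand. The Sp5 promoter, chr2:70474673-70474972 on the plus strand, has 2 matches, both on the given strand.
T: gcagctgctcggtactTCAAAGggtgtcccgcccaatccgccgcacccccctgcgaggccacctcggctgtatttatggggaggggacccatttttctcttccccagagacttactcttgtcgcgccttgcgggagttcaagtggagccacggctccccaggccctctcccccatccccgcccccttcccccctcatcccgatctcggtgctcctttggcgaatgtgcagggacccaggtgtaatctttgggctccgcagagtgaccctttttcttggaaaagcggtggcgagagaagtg
Sp5: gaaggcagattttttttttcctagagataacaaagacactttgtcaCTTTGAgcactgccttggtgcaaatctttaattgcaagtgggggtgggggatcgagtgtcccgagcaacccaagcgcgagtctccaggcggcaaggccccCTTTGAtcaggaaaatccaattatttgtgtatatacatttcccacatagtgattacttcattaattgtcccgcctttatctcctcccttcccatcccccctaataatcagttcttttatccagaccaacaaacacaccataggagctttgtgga
At least 1 match is present in 16% of the 32851 promoters of this length in the table, and 2 or more in 1.73%. Of the Wnt list members that held, the Axin2 promoter has no match, that of Dkk1 has 2, and 1 of 4 Lef1 promoters has 2. A match is a description of the letters and not evidence of binding.

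Of the 28 measured genes on the list of primitive streak and mesoderm genes, 9 were called higher and 2 lower with the fixed offset. Under both offsets 3 higher (T, Sp5 and Wnt3) and 1 lower (Pdgfra) held, which is 10.7% and 3.57% against 1.77% and 2% of all genes. The median difference of this list was 0.06, and that of all genes was -0.01. Wnt3, the ligand that starts streak formation in the embryo, had log2 ratios of 1.20 and 1.53 in iPS4 and of 0.19 and 0.32 in iPS5. The Wnt3 difference was 1.11 ± 0.07 (SE, adjusted p = 0.000553), or 0.56 with the matched offset (adjusted p = 0.0168). Other streak regulators did not hold: Wnt8a, Foxa2, Fgf8, Gsc and Eomes had differences of 1.01, 0.73, 0.74, 0.75 and 0.61 with the fixed offset and of 0.53, 0.59, 0.65, 0.39 and 0.16 with the matched one. Gsc was not well above background in the iPS channel on either iPS5 array. The streak and mesoderm markers Tbx6 and Mesp1 had differences of 0.04 and -0.03, neither of them called, and Cdx4 was not above background on any of the 4 arrays. Of the 10 markers of streak and mesoderm, 9 were above background on each iPS4 array and 4 to 5 on the iPS5 arrays, and their summed normalized signal was 1800 to 1880 in iPS4 and 1030 to 1090 in iPS5. Over all gene probes, too, fewer were above background on the iPS5 arrays (63.12% and 46.87% against 88.05% and 64.55%). Of 8 endothelial and blood markers, none of them called, 5 to 8 were above background in iPS4 and 2 to 5 in iPS5. The part of array brightness in the streak count was not tested.

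Among 20 measured targets of Wnt and beta-catenin, 6 were called higher and 2 lower in iPS4, and 4 higher and 1 lower held. That is 20% and 5% held, against 1.77% and 2% of all genes. The higher ones were T and Sp5, counted above on the streak list as well, with Axin2 and Lef1, and the lower one was Dkk1. With the matched offset 4 members were called higher and 3 lower. Axin2, a feedback inhibitor that most cells raise on Wnt signalling, had log2 ratios of 1.21 and 2.01 in iPS4 and of 0.21 and 1.01 in iPS5. The ratios depended on the dye, but both iPS4 values lay above both iPS5 values. The fit gave a difference of 1.00 ± 0.05 (SE, adjusted p = 0.000348), or 0.56 with the matched offset. Lef1, a partner of beta-catenin on DNA, differed by 0.48 with the fixed and 0.59 with the matched offset, though only 1 of its 4 probes was called. Dkk1, a secreted Wnt antagonist that is itself a Wnt target, ran the other way, with ratios of -0.19 and -0.12 in iPS4 and of 0.54 and 0.64 in iPS5. Its difference was -0.75 ± 0.06 (SE, adjusted p = 0.00141), and -1.27 with the matched offset. The median of the Wnt list was 0.06 with the fixed and -0.05 with the matched offset, so the called members and the list's median did not share a direction in both settings.

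Genes of the primed epiblast were higher in iPS4 where they held. Of 16 measured, 6 were called higher and 2 lower, and 5 higher and none lower held. The share higher that held was 31.2%, against 1.77% of all genes. Fgf5, the growth factor that marks the postimplantation epiblast, had ratios of 1.32 and 1.67 in iPS4 and of 0.15 and 0.39 in iPS5. This made a difference of 1.23 ± 0.06 (SE, adjusted p = 0.000226), and 0.94 with the matched offset. Pim2, a kinase gene, Dnmt3b, a DNA methyltransferase gene of early embryos, and Otx2, a homeobox gene of the epiblast and forebrain, differed by 0.66, 0.47 and 0.33 and held, with 0.78, 0.48 and 0.65 under the matched offset. Otx2 was below the ES pool on all 4 arrays, at -1.05 and -0.79 in iPS4 and -1.32 and -1.18 in iPS5. The list's median difference was 0.13, and 0.22 with the matched offset.

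Genes on the list of core and naive pluripotency were called in both directions. Of 27 measured, 3 were called higher and 9 lower in iPS4, and 2 higher and 5 lower held. That is 7.41% and 18.5% held, against 1.77% and 2% of all genes. The list's median difference was -0.18, and -0.20 with the matched offset. Dppa3 (Stella), which protects maternal methylation marks after fertilisation, had log2 ratios of 0.71 and 1.18 in iPS4 against -1.03 and -0.70 in iPS5. The Dppa3 difference was 1.81 ± 0.06 (SE), or 3.5-fold (adjusted p = 4.72e-05), and 1.91 with the matched offset. Lin28a, an RNA-binding repressor of let-7, differed by 0.41 under either offset. In the other direction, Tbx3, a T-box factor of naive cells, stood at 0.48 and 0.41 in iPS4 and at 1.55 and 1.72 in iPS5. The Tbx3 difference was -1.19 ± 0.07 (SE, adjusted p = 0.000674) and -1.73 with the matched offset, on 1 of its 2 probes. Klf5, a Kruppel-like factor of naive cells, had ratios of 0.28 and 0.21 in iPS4 and of 1.71 and 1.65 in iPS5. Its difference was -1.44 ± 0.05 (SE, adjusted p = 7.29e-05), or -1.53 with the matched offset, on 2 of its 3 probes. Nr0b1 (Dax1), a nuclear receptor that binds Oct4, Spp1, a secreted phosphoprotein, and Tet2, which oxidises methylated cytosine, were also lower and held, at -0.89, -0.78 and -0.36 (-0.95, -0.82 and -0.61 with the matched offset). The call of Tet2 was lost when the mean of its probes was taken. In iPS1 the Tbx3, Klf5 and Nr0b1 ratios were all below 0, at means of -0.38, -0.39 and -0.39.

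In the core of the network, Pou5f1 (Oct4), Sox2 and Nanog were not called with the fixed offset. Their differences were -0.43 ± 0.12, 0.15 ± 0.07 and -0.21 ± 0.06 (SE), with adjusted p of 0.0805, 0.221 and 0.0744. The Pou5f1 difference and its SE were the largest of these. Esrrb and Zfp42, both genes of naive cells, were called lower with the fixed offset (-0.31 and -0.43) and did not hold (-0.36 and -0.22 with the matched offset, adjusted p = 0.08 and 0.208). All 11 pluripotency markers were above background on all 4 arrays, with summed signals of 38500 to 52700 in iPS4 and of 49100 to 51700 in iPS5.

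**Figure D2:**
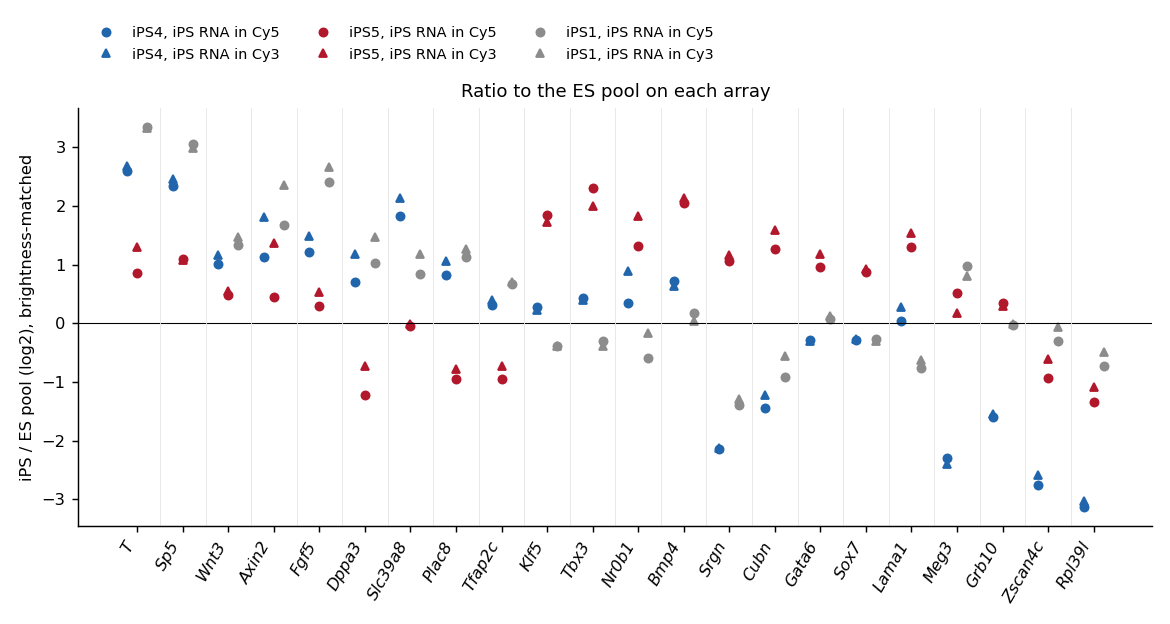
Log2 ratio of each line to the ES pool on each of the 6 arrays for 22 named genes, with the matched offset; circles have the iPS RNA in Cy5 and triangles in Cy3, blue is iPS4, red iPS5 and grey iPS1, and the line at 0 marks the ES pool. The T, Sp5 and Fgf5 points of iPS4 lie above those of iPS5, and the Srgn, Cubn, Meg3 and Grb10 points of iPS4 lie below 0 while those of iPS5 lie above it.

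Genes of the primitive endoderm, the layer that gives rise to the yolk sac, were the list with the largest share of genes lower in iPS4 under both offsets, among lists with at least 10 genes measured. Of 24 measured, 1 was called higher and 14 lower, and 12 lower held, which is 50% against 2% of all genes. The median difference was -0.60, and -0.52 with the matched offset. Srgn, a proteoglycan of secretory granules, had the lowest difference of all named genes. Its log2 ratios were -2.45 and -2.46 in iPS4 and 0.79 and 1.02 in iPS5, which gave -3.36 ± 0.07 (SE), or 10.2-fold lower in iPS4 (adjusted p = 1.19e-05). With the matched offset it was -3.25, or 9.53-fold. Cubn, the endocytic receptor cubilin of the visceral endoderm, had ratios of -1.67 and -1.45 in iPS4 and of 0.80 and 1.34 in iPS5. The Cubn difference was -2.63 ± 0.08 (SE, adjusted p = 4.19e-05), and -2.75 with the matched offset. Both genes were below the ES pool on the iPS4 arrays and above it on the iPS5 arrays, and in iPS1 both were below it, with means of -1.47 and -0.83.

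Partners of cubilin were lower as well: Amn (amnionless), which carries cubilin to the cell surface, and Dab2, an adaptor for its uptake, differed by -0.88 and -0.94 (-0.94 and -0.85 with the matched offset) and held. Among the transcription factors, Gata6, which starts the primitive endoderm programme, had ratios of -0.37 and -0.42 in iPS4 and of 0.44 and 0.79 in iPS5. The Gata6 difference was -1.01 ± 0.09 (SE, adjusted p = 0.0024), and -1.36 with the matched offset, and Gata6 was above background on 1 of the 2 iPS4 arrays. Sox7, an endodermal SOX factor, differed by -0.86 and -1.17 under the fixed and the matched offset, likewise with 1 iPS4 array above background. Gata4 and Sox17, which act beside them, differed by -0.06 and -0.13 and were not called on their brightest probes, though 1 other probe of each was called lower. Basement membrane genes of this layer were lower in iPS4 and held: Lama1 (-0.84), Col4a2 (-0.75), Lamc1 (-0.64) and Sparc (-0.84), with -1.26, -0.72, -0.74 and -0.81 under the matched offset. Pdgfra, the receptor that marks primitive endoderm precursors, and Apoe, a lipoprotein gene, differed by -0.57 and -0.65 (-0.82 and -0.69 with the matched offset) and held. Fst, which encodes the activin inhibitor follistatin, was called higher with the fixed offset only (0.75, and 0.43 with the matched offset). The 11 markers of this cell type had a summed normalized signal of 1290 to 1330 in iPS4 and of 3120 to 3130 in iPS5, with 8 to 11 and 10 of them above background.

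Fibroblasts were the donor cells and the feeder cells, and Sparc and Pdgfra are also on the list of fibroblast and matrix genes. Of the 40 measured genes of that list, 28 were called lower in iPS4 with the fixed offset and none higher. With this offset 7.4% of all genes were called lower. With the matched offset the median moved from -0.37 to -0.16, and 4 held: Sparc, Pdgfra, S100a11, a calcium-binding protein, and Ccn2, a matricellular protein. These made up 10% of the list, against 2% of all genes that were lower and held. Of the 14 fibroblast markers, 12 were called lower with the fixed offset and none held, and their summed signal was 3410 to 3440 in iPS4 and 4170 to 4240 in iPS5. The part of fibroblast RNA in the differences of Sparc, Pdgfra and the basement membrane genes was not tested. Cubn, Srgn, Amn and Gata6 are not on the fibroblast lists, but the part of fibroblast RNA in their differences was not tested either.

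A pair of imprinted genes stood out. Meg3, a noncoding RNA expressed from the maternal allele of the Dlk1-Dio3 locus on chromosome 12, had log2 ratios of -2.51 and -2.65 in iPS4 and of 0.43 and 0.13 in iPS5. The Meg3 difference was -2.87 ± 0.06 (SE), or 7.3-fold lower in iPS4 (adjusted p = 1.19e-05), and -2.70 with the matched offset, and 3 of its 5 probes were called lower and none higher. In iPS1 Meg3 was above the pool, at 1.01 and 0.80. Dlk1, the paternally expressed growth regulator of the locus, differed by -0.75 ± 0.05 (SE) and by -0.49 with the matched offset, and held. Dio3, at the far end of the locus, differed by -0.12 and was not called. Grb10, an adaptor that restrains insulin signalling and is expressed from the maternal allele outside the brain, had ratios of -1.82 and -1.79 in iPS4 and of 0.23 and 0.23 in iPS5. Its difference was -2.03 ± 0.05 (SE), or 4.09-fold (adjusted p = 1.99e-05), and -1.89 with the matched offset, and all 3 of its probes were called lower. Zdbf2, a paternally expressed gene, differed by 0.97 (0.80 with the matched offset) and held, with 1 of 3 probes called. Cd81, a tetraspanin gene of the Kcnq1 cluster, differed by -0.68 (-0.71) and held. Among the 32 other imprinted genes measured, Grb10 included, 6 were called higher and 5 lower, and 1 higher and 2 lower held, which is 3.12% and 6.25% against 1.77% and 2% of all genes.

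The list of the 2-cell-like state had 9 genes measured, of which 4 were called lower and none higher in iPS4, and 3 held. The 3 that held made up 33.3%, against 2% of all genes. Zscan4c, a SCAN domain factor of that state, had ratios of -2.96 and -2.80 in iPS4 and of -0.74 and -0.57 in iPS5. The difference was -2.23 ± 0.05 (SE), or 4.68-fold (adjusted p = 1.8e-05), and -1.90 with the matched offset. Zscan4f (-1.51, and -0.90 with the matched offset) and Usp17la, a deubiquitinase gene (-0.77 and -0.50), also held. Zscan4 and Usp17l genes are near-identical copies, so that their probes may share signal. The ribosomal protein paralog Rpl39l, most abundant in testis, had ratios of -3.21 and -3.13 in iPS4 and of -1.18 and -1.05 in iPS5, a difference of -2.06 ± 0.06 (SE, adjusted p = 3.66e-05) that held at -1.87. Germ line genes were called lower 15 times among 32 measured with the fixed offset, but the list's median went from -0.31 to 0.00 with the matched offset. Those that held were 12.5% lower and 6.25% higher, against 2% and 1.77% of all genes. Stra8, the gatekeeper of meiosis, Dazl, an RNA-binding protein of germ cells, Hormad2, a protein of meiotic chromosome axes, and Tex19.1 were lower and held, at -1.20, -1.14, -1.01 and -0.45 (-0.78, -0.70, -0.82 and -0.45 with the matched offset). Nanos3 and Tex15 were higher and held, at 0.80 and 0.31 (0.47 and 0.35).

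Single genes outside these groups also led the ranking. Slc39a8, a zinc and manganese importer, had ratios of 1.99 and 2.43 in iPS4 and of -0.02 and -0.01 in iPS5, a difference of 2.23 ± 0.10 (SE, adjusted p = 0.000226) that held at 2.00, on 2 of 3 probes. It was above background on 1 of the 2 iPS5 arrays. Plac8, a cysteine-rich protein first found in placenta, stood at 0.83 and 1.06 against -0.81 and -0.75, a difference of 1.73 ± 0.06 (SE) that held at 1.80. Tfap2c, an AP-2 factor of trophectoderm and germ cells, stood at 0.32 and 0.39 against -0.67 and -0.62, a difference of 1.00 that held at 1.19. Further genes with high differences that held were Ppp4r4, a phosphatase regulator (1.53), Frem2, a basement membrane protein (1.39), Nefl, a neurofilament gene (1.17), and Gldc, which cleaves glycine in mitochondria (1.07). With the matched offset these were 1.21, 0.70, 0.99 and 1.21. Fos, the immediate early factor, stood at -2.64 and -2.24 in iPS4 against -0.74 and -0.63 in iPS5, a difference of -1.75 ± 0.08 (SE) that held at -1.50. Other genes on the list of FGF and ERK feedback and immediate early genes were lower and held. Egr1, Etv4 and Spry2, a feedback inhibitor, differed by -0.68, -0.50 and -0.44 (-0.75, -0.57 and -0.56 with the matched offset). Spry2 also lies in a stretch of chromosome 14 with other genes lower in iPS4, described below. Of 19 genes measured on that list, 6 were called lower and none higher with the fixed offset, and 4 held (21.1% against 2% of all genes). With the matched offset 1 member was called higher, and the list's median went from -0.08 to -0.0005. Birc5 (survivin), needed for chromosome segregation, differed by -1.15, or -1.16 with the matched offset, and Bmp4, the BMP ligand of the early embryo, by -0.84, or -1.42.

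**Figure D3:**
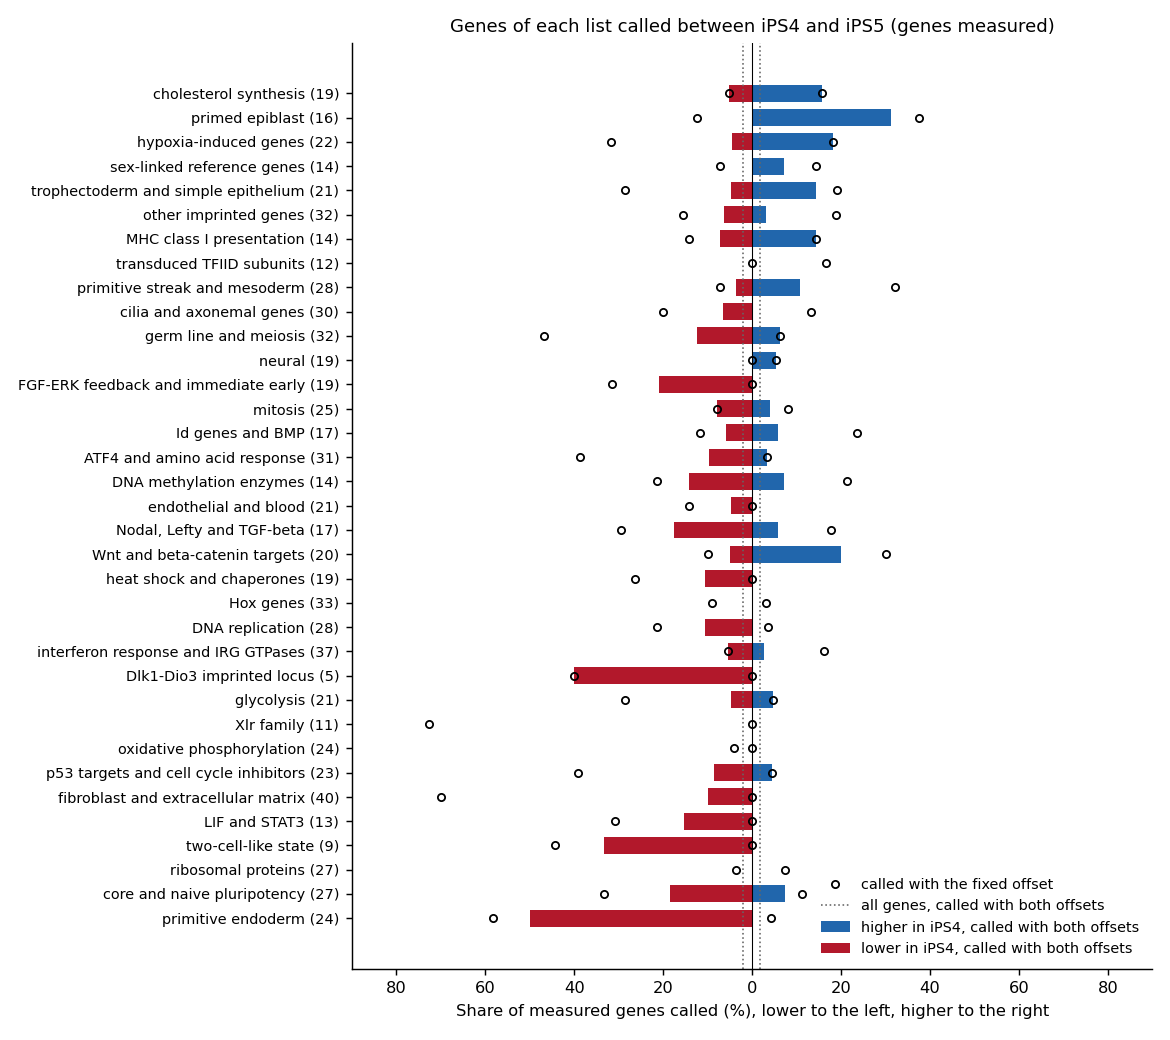
Share of the measured genes of each list called higher (right) and lower (left) in iPS4, for lists with at least 5 genes measured (number in brackets); bars are genes called with both offsets, open circles genes called with the fixed offset, and dotted lines the shares of all genes called with both (1.77% and 2%). Primitive endoderm has the longest bar at 50% lower, and the Xlr family has an open circle but no bar.

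Along the chromosomes, genes that held were found on every autosome and on the X chromosome. Genes were put in order and the median difference was taken over each run of 15 neighbouring genes above background on all 4 arrays. Of 11259 such runs, 20 on chromosome 14 had a median beyond 0.3 in either direction with the matched offset. On all other chromosomes together 1 run did, on the X chromosome, and elsewhere the medians lay between -0.276 and 0.317. The runs on chromosome 14 fell into adjoining stretches of opposite direction, at ranks 354 to 376 and 377 to 389 of its 393 genes above background. The bounds of the stretches were set after their values were seen, so that they are a description and carry no test.

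From Diaph3 to Spry2, 23 genes were above background on all 4 arrays, and 12 of them were lower in iPS4 and held, with none higher. These were Diaph3, Mzt1, Bora, Dis3, Pibf1, Klf5, Commd6, Uchl3, Mycbp2, Rbm26, Ndfip2 and Spry2, whose known roles vary: Bora activates a mitotic kinase, Dis3 degrades RNA, Uchl3 removes ubiquitin and Ndfip2 recruits ubiquitin ligases. Their differences ran from -1.44 to -0.44 with the fixed offset and from -1.53 to -0.56 with the matched one. Over these genes the median ratio with the matched offset was -0.09 and 0.20 on the iPS4 arrays. It was -0.08 and 0.09 on the iPS1 arrays, and 0.83 and 0.99 on the iPS5 arrays. These genes were selected by the iPS4 minus iPS5 difference, so a gap between these lines was given in advance. The lowest run, Diaph3 to Mycbp2, was itself picked by the same difference. Over all its 15 genes the medians were 0.07 in iPS4, 0.72 in iPS5 and 0.09 in iPS1. Uchl3, for example, had fixed-offset ratios of -0.36 and -0.09 in iPS4 and of 0.67 and 0.88 in iPS5, and Klf5 and Spry2, described above with their groups, lie in the same stretch. The 11 genes of the stretch that did not hold were dimmer, with a median log2 intensity of 7.60 against 9.52, and included Pcdh9, Klhl1, Ednrb and Pou4f1, genes best known from neural tissue.

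The next stretch, from Gpr180 to Tm9sf2, had 13 such genes, and 12 were called higher in iPS4 and none lower, of which 10 held. They were Abcc4, an exporter of cyclic nucleotides, Dnajc3, a chaperone of the endoplasmic reticulum, Mbnl2, a splicing regulator, Rap2a, Ipo5, a nuclear import receptor, Farp1, Stk24, Dock9, Ubac2 and Tm9sf2. Their differences ran from 0.32 to 1.01, and from 0.42 to 1.09 with the matched offset. The median matched ratio was -0.01 and 0.30 on the iPS4 arrays, 0.01 and 0.30 on the iPS1 arrays, and -0.69 and -0.46 on the iPS5 arrays. These genes were selected in the same way. The highest run, 4930449E01Rik to Tm9sf2, was also picked by the iPS4 minus iPS5 difference. It takes in 4930449E01Rik and Spry2 from the stretch before. Over all its 15 genes the medians were 0.145 in iPS4, -0.412 in iPS5 and 0.114 in iPS1. By these medians iPS5 lay further from the ES pool than iPS4 and iPS1 in both runs, in opposite directions. The choice of the runs gave a gap between iPS4 and iPS5 in advance. The remaining 357 genes of chromosome 14 had a median difference of 0.01, with 10 higher and 11 lower that held. The authors' deposited ratios gave median differences of -0.45 and 0.49 over all genes above background in the 2 stretches. The arrays measured RNA only.

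**Figure D4:**
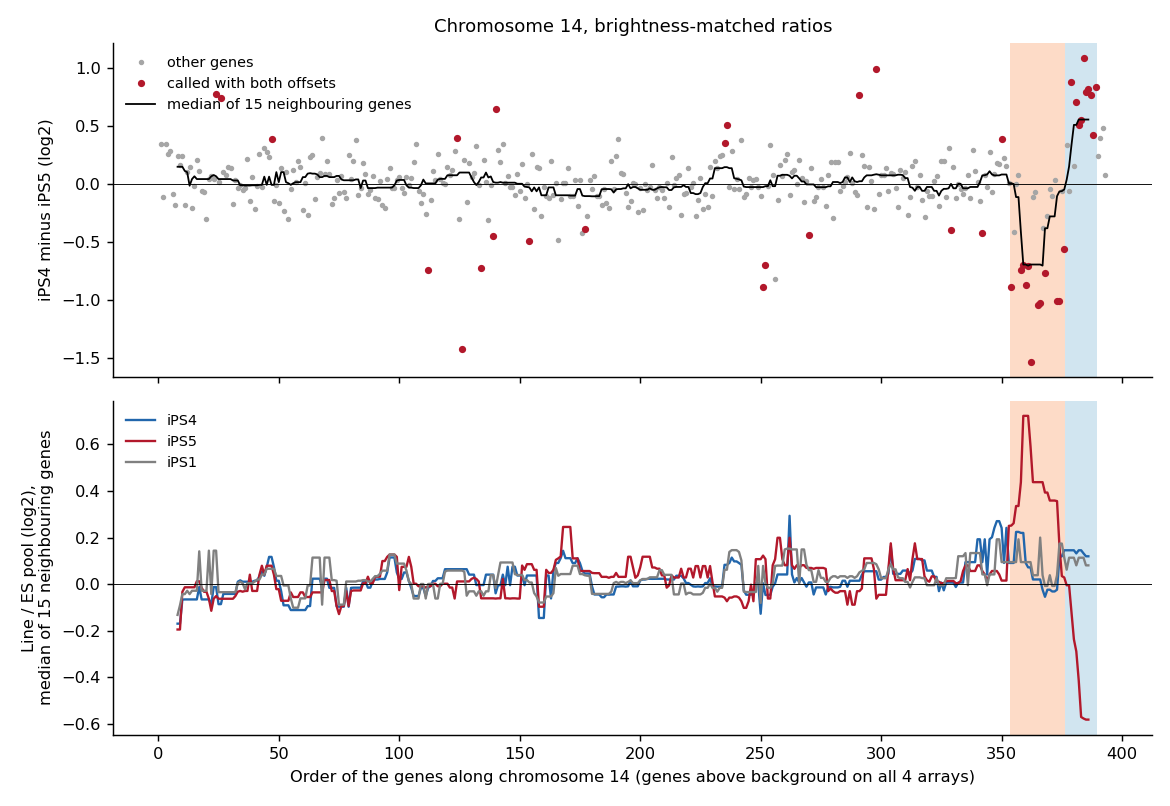
Top, difference iPS4 minus iPS5 (log2, matched offset) for the 393 genes of chromosome 14 above background on all 4 arrays, in their order along the chromosome, with the median of 15 neighbouring genes as a line. Bottom, the same running median of the ratio of each line to the ES pool; orange shading marks Diaph3 to Spry2 and blue shading Gpr180 to Tm9sf2, where the iPS5 line leaves 0 upward and then downward while iPS4 and iPS1 remain near it.

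The X chromosome held the largest share of genes that were higher in iPS4. Of 653 genes measured there, 37 were higher and held (5.67% against 1.78% over all chromosomes) and 11 were lower (1.68% against 1.99%). Most of the higher ones differed by modest amounts. Mageb16, a gene of the MAGE family, was the highest at 1.06, and 1.28 with the matched offset. Hs6st2, which sulfates heparan chains, differed by 1.05 (0.97 with the matched offset), and Rlim, the ubiquitin ligase that promotes X inactivation, by 0.55 and 0.60 under the fixed and matched offset. The call of Rlim was lost when the mean of its probes was taken. The median over the 348 X-linked genes above background was 0.05 (0.06 with the matched offset) against -0.01 and -0.02 for all chromosomes, so the shift of the whole chromosome was small. Xist, the RNA that coats the inactive X, was above background on both iPS4 arrays and on 1 iPS5 array. Its difference was 0.41 with the fixed offset (adjusted p = 0.0104) and 0.31 with the matched one (adjusted p = 0.177), and 1 of its 4 probes was called.

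**Figure D5:**
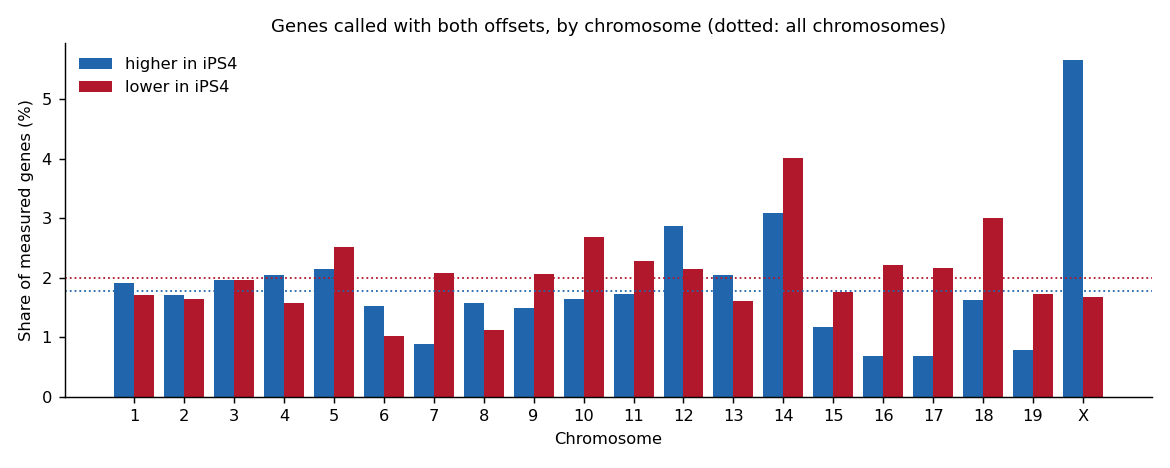
Share of measured genes that were called with both offsets, higher (blue) or lower (red) in iPS4, for each autosome and the X chromosome; dotted lines give the shares over all chromosomes (1.78% and 1.99%). The X bar for higher genes is the tallest at 5.67%, and chromosome 14 has 3.09% higher and 4.02% lower.

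Other differences with the fixed offset did not hold. The Xlr genes, X-linked genes related to the synaptonemal complex protein Sycp3, gave 8 calls lower and none higher among 11 measured, with a median of -1.37. Of all genes, 7.4% were called lower with this offset. With the matched offset the median was -0.12 and no member was called. Xlr5c, for instance, had fixed-offset ratios of -5.06 and -5.26 in iPS4 and of -3.02 and -3.40 in iPS5, and was not well above background on either iPS5 array. Its difference went from -1.95 ± 0.10 (SE, adjusted p = 0.00029) to -0.41 (adjusted p = 0.0721). Both lines thus had Xlr ratios far below the ES pool, and no order between them was measured. The probes of these near-identical genes may also share signal. Eif2s3y, a Y-linked translation factor gene, was likewise far below the pool in both lines, at -4.26 and -4.21 in iPS4 and -2.85 and -2.97 in iPS5, and was not well above background in iPS5. Its difference was -1.32 with the fixed and 0.10 with the matched offset (adjusted p = 0.00159 and 0.581). Crisp4, Ntn1, Efhc2 and Rpgrip1 were among the genes with the largest differences at 1.04, 1.38, -1.55 and -1.52, and were not called with the matched offset (0.02, 0.36, -0.44 and -0.48). Thumpd1 held, but its difference went from -1.76 to -0.45, it was not well above background in iPS5, and its other probe was called in the opposite direction.

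Transcripts of the transduced TFIID subunits differed little between the lines. The arrays do not tell retroviral transcripts from those of the genome. Of the 12 transduced TFIID subunits, Taf7 and Taf9 were called higher in iPS4 by 0.26 and 0.28 with the fixed offset, and neither held (0.20 and 0.28, adjusted p = 0.13 and 0.0678). The other subunits had differences between -0.18 (Taf6) and 0.20 (Tbp), none of them called. Taf7 was above the ES pool on all arrays of both lines, at 0.83 and 1.19 in iPS4 and 0.57 and 0.94 in iPS5. Klf4 was lower in iPS4 and held, with ratios of 0.47 and 0.58 against 0.81 and 0.97 and a difference of -0.36 ± 0.05 (SE, adjusted p = 0.00894), or -0.52 with the matched offset. Myc was called higher with the fixed offset at 0.26 (adjusted p = 0.0316), and had -0.17 with the matched one (adjusted p = 0.217). Oct4 and Sox2, also transduced, are given above with the core of the network. Over the 4 transduced reprogramming factors the median difference was -0.11, and -0.31 with the matched offset.

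The lists of cell functions and stress responses that follow are to be read against the 3.77% of all genes that held. Shares for 1 direction are to be read against 1.77% higher and 2% lower. None of 24 oxidative phosphorylation genes, 27 ribosomal protein genes or 33 Hox genes held in either direction. Of 22 hypoxia-induced genes, Pdk1, Ddit4, Bnip3 and Egln3 were higher and held (18.2%), at 0.55, 0.60, 0.46 and 0.26, and at 0.65, 0.67, 0.74 and 0.61 with the matched offset. P4ha2, which hydroxylates collagen, was lower and held (4.55%), at -0.94 and -0.75. With the fixed offset 4 genes of the hypoxia list were called higher and 7 lower. The median of that list went from -0.09 to 0.12 with the matched offset, so its direction depended on the offset. Of 19 genes of cholesterol synthesis, Idi1, Hmgcs1 and Sqle were higher and held (15.8%), at 0.53, 0.43 and 0.25, and at 0.57, 0.45 and 0.35 with the matched offset. Ebp, a sterol isomerase gene, was lower and held (5.26%), at -0.39 and -0.73. Of 31 genes of the ATF4 and amino acid response, 1 was called higher and 12 lower with the fixed offset, and 1 higher (Ddit4, also on the hypoxia list) and 3 lower held, while the median went from -0.08 to -0.03. The lower ones were Vldlr, Atf5 and Nupr1, at -1.38, -0.65 and -0.89, and at -0.35, -0.53 and -0.46 with the matched offset. Vldlr was not well above background on either iPS5 array. Of 14 genes of MHC class I presentation, the immunoproteasome subunits Psmb8 and Psmb10 were higher and held (14.3%), at 0.31 and 0.29, and at 0.38 and 0.40 with the matched offset. The chaperone Calr was lower and held (7.14%), at -0.48 under either offset. Among 37 interferon response genes, Irf1 was higher and held (2.7%), at 0.51 and 0.52. Ifit3 and Xaf1 were lower and held (5.41%), at -0.71 and -0.50, and at -0.55 and -0.80 with the matched offset.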

How the data were processed

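RNA of the iPS lines and of the ES pool was compared on 2-colour oligonucleotide arrays. The deposited scanner files hold the signal and local background intensity of 45220 spots per dye, not normalized per the file headers; 4046 spots are controls. The deposited table holds log2 ratios of the same arrays made by the authors, whose normalization and genome build are not given in the sources used here. Against the scanner values these log2 ratios ran as iPS over ES (r of 0.924 to 0.969) with medians of -0.0248 to 0.025, and they served as an alternative. The deposited mean over lines was not used.

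Signals were corrected with normexp and an offset of 50 and normalized by loess (span 0.3, without weight on controls). The tools were limma 3.58.1 and statmod 1.5.0 in R 4.3.3. All 6 arrays entered a fit with a term for each line and another for the dye, which leaves 2 residual degrees of freedom. The contrast iPS4 minus iPS5 was tested with eBayes and, beyond 2-fold, with treat, and p-values were adjusted by Benjamini-Hochberg over 41174 probes. P-values measure the spread between arrays, and the small number of arrays limits the precision. In the matched offset, chosen after seeing the data, each channel was scaled to the same 75th percentile before 50 was added. A probe was above background where its net signal passed the 95th percentile over the 604 spots of a control reporter that stayed dim. Of the probes, 34186 had 1 gene symbol (30365 current, 3726 synonyms and 95 not in the RefSeq table) and 6988 had none.

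A gene was read from its brightest probe. Named genes were the 15 highest and 15 lowest called with the same sign in both dye pairs, up to 4 per list, and all members of the lists of transduced, Xlr, Rhox, Dlk1-Dio3 and sex-linked genes; those printed here are part of these, and chromosome 14 genes, Lrp2 and others were named after their values were seen. The comparison and the 37 lists were chosen with earlier results of these data known. Alternatives were the offset, background subtraction, median centring, scaling, the authors' ratios, 4 arrays only, no dye term, leaving out dim probes, means over a gene's probes and leaving out each array. The scripts were tested on simulated data.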

Additional observations from a re-analysis of the deposited data

Results flagged for a closer look

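For 26 followed genes the lines lay on opposite sides of the ES pool on all 4 arrays, with a difference called under both offsets. Of all 18295 genes, called or not, 1198 lay on opposite sides on all 4 arrays with the fixed offset. Among genes that held, 162 of the 324 higher and 166 of the 365 lower had line means of opposite sign with the matched offset. Opposite sides were thus common among genes that held, and not particular to the 26. Each value is the log2 difference iPS4 minus iPS5 with the fixed offset. Above the pool in iPS4 and below it in iPS5 were Slc39a8 (2.23), Dppa3 (1.81), Plac8 (1.73), Tfap2c (1.00), Idi1 (0.534), Irf1 (0.507), Lef1 (0.479), Dnmt3b (0.468), Hmgcs1 (0.433) and Psmb8 (0.308). The iPS5 ratios of Slc39a8 were within 0.02 of the pool.

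Below the pool in iPS4 and above it in iPS5 were Srgn (-3.36), Meg3 (-2.87), Cubn (-2.63), Grb10 (-2.03), the survivin gene Birc5 (-1.15), Col4a2 (-0.751), Dkk1 (-0.746) and S100a11 (-0.686). The same held for Inhbb, an activin subunit gene (-0.671), Ccn2 (-0.665), Pdgfra (-0.57), Etv4 (-0.498), the macrophage marker Cd68 (-0.497), Calr (-0.478), the intraflagellar transport gene Ift52 (-0.4) and the kinase gene Jak1 (-0.391).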

How the results depend on the processing

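The main setting called 4436 probes, 22 beyond 2-fold. The counts were 0 and 0 with offset 0 (7117 at an unadjusted p under 0.05), 17 and 2 where the background was simply subtracted, and 146 and 3 with median centring (24% higher against 49.8% in the main setting). They were 2820 and 12 with arrays scaled to a common spread, 2685 and 15 with the 4 arrays only, and 250 and 4 with no dye term (32.4% higher). With the mean of a gene's probes they were 2413 and 8 of 18295 genes, and 1270 and 10 with the matched offset. The authors' ratios gave 3458 and 23, and leaving out dim probes 4483 and 15 of 26560. Leaving out 1 array gave 617 to 6964 and 10 to 55: the calls were 1201 and 617 without the first or second iPS4 array, 6964 and 6507 without an iPS5 array, and 2685 without an iPS1 array. The cause of these moves was not tested, beyond fewer probes or arrays entering the fit.

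Of 140 called genes that were followed, 129 kept direction and call with the authors' ratios, 126 with the 4 arrays only, 83 with the matched offset and 0 with offset 0. Differences turned in sign for Xlr5c (0.0176), Myc (-0.203), Eif2s3y (0.211), Bag3 (0.0767) and Pfkfb3 (0.146) with offset 0, and for Myc (-0.112) and Pfkfb3 (0.00546) with plain subtraction. They turned for Xlr4b (0.208), Myc (-0.252), Taf7 (-0.0729) and Eif2s3y (0.0104) with scaled arrays, for Rpl3 (0.0548) with the mean of probes, and for Myc (-0.175), Eif2s3y (0.105), Bag3 (0.0157) and Pfkfb3 (0.013) with the matched offset. The chromosome 14 medians over genes above background ran over 16 settings from -0.656 to -0.163 (Diaph3 to Spry2) and from 0.301 to 0.84 (Gpr180 to Tm9sf2), both nearest 0 with the mean of a gene's probes. The labels give the arrays no replicate numbers, so no fit with a replicate block was run. The dye term of the fit paired the arrays of one dye orientation. Low signal on the iPS5 arrays limits what can be said of genes not above background there.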

Other observations

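Some genes outside the lists held with differences near the largest, and they were chosen after their values were seen. Lrp2 (megalin), the endocytic partner of cubilin, had log2 ratios of -1.13 and -1.14 in iPS4 and of 0.02 and 0.45 in iPS5. The Lrp2 difference was -1.37 with the fixed and -1.31 with the matched offset, and 3 of its 4 probes were called lower. Lama3, a laminin chain gene, differed by -1.17 and -1.66, and Htra1, a secreted protease gene, by -1.02 and -1.32. Coil, the gene of the Cajal body protein coilin, was above the pool in both lines, at 1.44 and 1.42 in iPS4 and 2.66 and 2.79 in iPS5, with differences of -1.29 and -1.82 on 1 of its 2 probes. Apobec2, a member of the cytidine deaminase family, differed by -1.18 and -1.79, and Ly6e, a surface protein gene, by -0.99 and -1.13.

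Higher in iPS4 were Fabp5, a fatty acid binding protein gene (0.89 and 1.12), Khdc3, a maternal gene of the early embryo (0.85 and 1.10), and Mycn, the N-Myc gene (0.77 and 0.78, both of its 2 probes called). On the X chromosome, Fhl1, a LIM domain gene, and Hmgn5, a nucleosome binding protein gene, differed by 0.98 and 0.91 with the fixed offset and by 1.04 and 1.00 with the matched one. Fhl1 and Hmgn5 lay above the pool on both iPS4 arrays and below it on both iPS5 arrays.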
